A study of Mus musculus with 8 samples.

Results

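The transcription factor genes that hold mouse embryonic stem (ES) cells in naive pluripotency were examined in RNA-seq libraries of cells acutely depleted of DHX35 or GPATCH1. The members were set by name and are Pou5f1, Sox2, Nanog, Klf2, Klf4, Esrrb, Tfcp2l1, Tbx3, Zfp42 and Prdm14, which are 10 of the 55291 gene symbols in the count tables. All 10 were among the 16371 genes that passed the expression filter, so none was lost before the tests. In the fit of all 8 libraries none of the 10 passed the test after 4 h of depletion of either protein. Whether members passed after DHX35 depletion depended on which DMSO library of that line was kept. On the log2 scale, Klf4 differed by 0.44 without replicate 2 and by 0.07 without replicate 1, which is unlike the other libraries. The highest library exceeded the lowest by 1.09-fold to 1.55-fold. In the fit of all 8 libraries with the expression filter and TMM scaling, the confidence intervals that lay off 0 were all between the 2 edited lines, where no member was called unless a library or the expression filter was left out.

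Naive pluripotency is the state of the early epiblast, in which a cell can still form every tissue of the embryo. In culture it is held by a network of transcription factors that bind the regulatory regions of each other's genes. POU5F1 (OCT4) and SOX2 bind composite DNA elements together and, with NANOG, form the core of the network. The cytokine LIF feeds into it through STAT3, with Klf4 and Tfcp2l1 among the targets, inhibition of the kinase GSK3 relieves repression of Esrrb, and inhibition of MEK blocks the FGF signal that moves cells out of the state.

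The cells were ES cells of the E14 line with a Flag-FKBP12 F36V degron knocked into the endogenous Dhx35 gene (DHX35-dTAG) or Gpatch1 gene (GPATCH1-dTAG). The degron lets the compound dTAG-13 send the tagged protein to the proteasome. DHX35 is a DEAH-box RNA helicase and GPATCH1 a G-patch protein, which act together on the spliceosome, and the study depleted each in these cells to examine splicing events, above all at weak 5′ splice sites. For 4 h, cells of each line received 200 nM dTAG-13 or the solvent DMSO, which gave 4 groups of 2 libraries. Each line was made from clones picked after puromycin selection, so a difference between the lines cannot be told apart from a difference between clones, and no untagged parental cells were analysed here. The only growth conditions in the labels name R1 cells and list serum, LIF, the MEK inhibitor PD0325901 and the GSK3 inhibitor CHIR99021.

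Sequence around the starts of several members carries short motifs of the factors that the other members encode. RefSeq promoter windows (GRCm38.p6, 250 bases before to 50 after a start) were given for 8 of the 10 genes. They were searched on both strands for ATGCAAA, the first 7 letters of the octamer that POU5F1 binds (called the octamer match here), the SOX motif ACAATG, the ESRRB motif AAGGTCA, the KLF motif GGGNGTGG and the TATA box TATAAA. The octamer match was found in Sox2, Nanog and Zfp42, and in 4.63% of all 32851 mouse windows. The SOX motif was found in Pou5f1, Nanog and Esrrb (12.6% of all windows), the KLF motif in Pou5f1, Nanog, Tfcp2l1 and Zfp42 (17.6%), the TATA box in Tfcp2l1 (13.6%) and the ESRRB motif in none of the 8 (4.72%). Of the SOX matches, that of Pou5f1 (chr17:35508637-35508666) lies inside the annotated gene, before a later RefSeq start. That of Esrrb lies after the start, at position 33. A member was counted when any of its windows held a match, while the percentages are of single windows, so the 2 are not on the same unit. Pou5f1, Nanog and Esrrb have 2 windows each. These matches describe letters in short windows and were not tested for enrichment. The stretches that hold the octamer matches, the SOX motif beside that of Nanog, and the TATA box are shown on the strand of the gene with the motif in capitals, since they show the letters of these motifs in the genes' own upstream sequence; whether they are bound was not measured.
Nanog octamer match, chr6:122707403-122707432, plus strand: ttacagcttctTTTGCATtacaatgtccat
Nanog SOX motif, chr6:122707410-122707439, plus strand: ttcttttgcattACAATGtccatggtggac
Sox2 octamer match, chr3:34649885-34649914, plus strand: cgccccctttcATGCAAAaccctctggcga
Zfp42 octamer match, chr8:43307176-43307205, minus strand: ctgaagaggcaTTTGCATaactgagcaaga
Tfcp2l1 TATA box, chr1:118627905-118627934, plus strand: cacctgacggccTATAAAaggcgccggccg
In Nanog, the octamer match (read on the opposite strand) and the SOX motif lie next to each other with 1 base between them, at positions -75 and -67 from the nearer of the RefSeq starts. The Sox2 octamer match begins at position -99, the Zfp42 octamer match at -185 and the Tfcp2l1 TATA box at -28.

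Total counts ranged from 12014203 to 14994173 per library. One library, the DHX35-dTAG DMSO replicate 1, is unlike the rest (mean correlation over genes 0.976, against 0.988 to 0.990 for the remaining 7), and the tests of the members are given below with and without it. The 2 genes with the highest counts took from 1.27% to 20.9% of a library. In the DHX35-dTAG line their share was 3.15% and 1.54% in DMSO (replicates 1 and 2) and 11.98% and 20.2% in dTAG-13. In the GPATCH1-dTAG line it was 4.23% and 20.9% in DMSO and 1.27% and 2.02% in dTAG-13. The share thus differed between the treatments in each line, in opposite directions. Levels are therefore given as CPM, read counts scaled to a common library size, after TMM scaling, which assumes that most genes do not change. ES cell markers outside the members were high in all libraries, with a summed level of 1985 to 2827 CPM for 7 genes. The highest of these sums was in the library that stands apart, where Dppa5a alone reached 1094 CPM against 502.5 to 602.5 in the others. Markers of other cell types were low, at 10.7 to 15.0 CPM summed over 7 fibroblast genes (Postn and Lum had no count in any library), 6.43 to 9.87 over 6 primitive endoderm genes and 14.0 to 19.4 over 3 neural genes. Those of trophoblast summed to 51.6 to 70.0 CPM over 5 genes. Gpatch1 itself lay at 23.2 to 25.6 CPM in the DHX35-dTAG line and at 6.90 to 7.31 in the GPATCH1-dTAG line, and Dhx35 at 72.3 to 84.8 and 58.1 to 64.9. Neither passed the test after dTAG-13, which acts on the protein.

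Of the 10 genes, all but Prdm14 were strongly expressed, and Prdm14 lay well below the rest. Per kb of annotated exon, the scale on which genes can be compared, Pou5f1 was the highest at a mean of 354 CPM per kb ± 55.9 (SD over 8 libraries). It was followed by Nanog at 250.1 ± 17.8, Zfp42 at 232 ± 7.35 and Tfcp2l1 at 175 ± 4.62. Klf2 (135 ± 12.9), Sox2 (125 ± 9.40), Esrrb (123 ± 8.51) and Klf4 (110.3 ± 13) lay close together, and Tbx3 (69.8 ± 5.53) and Prdm14 (12.7 ± 1.35) closed the order. All but Prdm14 were above the level of 96% of the 12776 protein-coding genes tested (percentiles 96.2 to 99.6), and Prdm14, a repressor of FGF receptor signalling and of DNA methyltransferase genes, stood at percentile 71.6. Neighbours whose ranges over the 8 libraries overlapped were Nanog with Zfp42, Klf2 with Sox2, Sox2 with Esrrb, and Esrrb with Klf4. Sox2 exceeded Esrrb in 5 of 8 libraries and Esrrb exceeded Klf4 in 5 of 8, so the order of these 3 is not settled. Nanog exceeded Zfp42 in 7 of 8 libraries and Klf2 exceeded Sox2 in 7 of 8. Neighbours whose ranges did not overlap kept their order in 8 of 8 libraries.

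**Figure D1:**
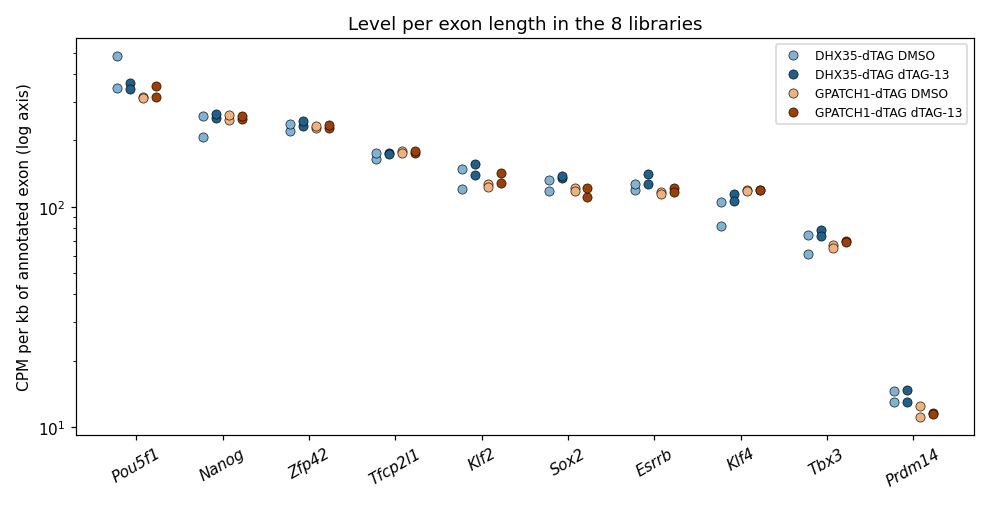
Level of each of the 10 genes per kb of exon (CPM per kb, log axis) in the 8 libraries, 1 point per library coloured by group, with genes in the order of their mean. Pou5f1 has the highest mean at 354 CPM per kb, Klf2, Sox2, Esrrb and Klf4 lie between means of 135 and 110.3, and Prdm14 is lowest at 12.7.

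The spread over all libraries differed between the genes. The highest library exceeded the lowest by 1.09-fold for Tfcp2l1, 1.11-fold for Zfp42, 1.22-fold for Esrrb and 1.24-fold for Sox2. The ratio was 1.27 for Nanog, 1.29 for Tbx3, 1.30 for Klf2, 1.32 for Prdm14, 1.46 for Klf4 and 1.55 for Pou5f1. The SD within groups on the log2 scale ran from 0.04 for Tfcp2l1, lower than for 98% of all genes tested (percentile 2.02), to 0.18 for Pou5f1 (percentile 53.3). Against the 500 genes nearest in mean level the percentiles were higher, at 84.6 for Pou5f1, 72.4 for Klf2, 72.2 for Klf4, 61 for Nanog, 57.8 for Tbx3 and 10.2 to 39.4 for the other 5, with the library that stands apart included. The position of Pou5f1 came from the library that stands apart: its replicates differed by -0.48 log2 units in DHX35-dTAG cells in DMSO and by -0.09, -0.01 and -0.16 in the other 3 groups. Over those 3 groups the SD was 0.08 for Pou5f1 (percentile 30.5) and 0.02 for Tfcp2l1 (percentile 1.13), and Prdm14 had the highest of the members at 0.10. Without that library the ratio of highest to lowest was 1.17 for Pou5f1, 1.14 for Klf4, 1.20 for Tbx3, 1.08 for Zfp42, 1.07 for Nanog and 1.04 for Tfcp2l1, and that of the other 4 members did not move.

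Pou5f1 (chr17:35506018-35510772, plus strand, 4 introns), whose product is the POU-domain factor required for pluripotency, reached 1087 and 780.4 CPM in DHX35-dTAG cells in DMSO (replicates 1 and 2) and 821 and 772 in dTAG-13. In GPATCH1-dTAG cells it lay at 707 and 702 CPM in DMSO and at 795 and 709.5 in dTAG-13. Its 1087 CPM in the library that stands apart lay 0.53 log2 units above the mean of the other 7, the largest departure of any member in any library. Sox2 (chr3:34650405-34652461, plus strand, a gene with no intron), which encodes the HMG-box partner of POU5F1, was at 244 and 272 CPM in DHX35-dTAG cells in DMSO and at 278 and 284 in dTAG-13. In GPATCH1-dTAG cells its levels were 251 and 243 CPM in DMSO and 228 and 251 in dTAG-13. Sox2 was thus highest in the DHX35-dTAG libraries that received dTAG-13. Nanog (chr6:122707489-122714633, plus strand, 3 introns), which encodes the homeodomain factor of the core, was at 467 and 577 CPM in DHX35-dTAG cells in DMSO and at 567 and 592 in dTAG-13. Its GPATCH1-dTAG levels were 555 and 585 CPM in DMSO and 561 and 581 in dTAG-13, so the 467 CPM of the library that stands apart was the lowest of the 8 and the other 7 lay between 555 and 592.

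Klf4 (chr4:55527143-55532466, minus strand, 4 introns), a zinc finger factor downstream of LIF and STAT3, was at 249 and 319.5 CPM in DHX35-dTAG cells in DMSO and at 349 and 323 in dTAG-13. In GPATCH1-dTAG cells all 4 libraries fell within 359.9 to 364 CPM, above every DHX35-dTAG library. Klf2 (chr8:72319033-72321656, plus strand, 2 introns), a related factor that overlaps with Klf4 in function, was at 274 and 222 CPM in DHX35-dTAG cells in DMSO and at 288 and 257 in dTAG-13. Its GPATCH1-dTAG levels were 233 and 227 CPM in DMSO and 236 and 262 in dTAG-13. In the library that stands apart, Klf4 was the lowest of the 8 and Klf2 the second highest. Tbx3 (chr5:119670669-119684724, plus strand, 6 introns), a T-box factor that helps sustain Nanog expression, was at 403 and 491 CPM in DHX35-dTAG cells in DMSO and at 519 and 487 in dTAG-13. In GPATCH1-dTAG cells Tbx3 was at 446 and 432 CPM in DMSO and at 461 and 459 in dTAG-13.

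Esrrb (chr12:86361117-86521628, plus strand, 6 introns), an orphan nuclear receptor released from repression by GSK3 inhibition, was at 719 and 767 CPM in DHX35-dTAG cells in DMSO and at 848 and 771 in dTAG-13. Its GPATCH1-dTAG levels were 703 and 692 CPM in DMSO and 733 and 706 in dTAG-13. Tfcp2l1 (chr1:118627945-118685168, plus strand, 14 introns), a target of STAT3 that can sustain self-renewal, was at 1555 and 1661 CPM in DHX35-dTAG cells in DMSO and at 1661 and 1635 in dTAG-13. In the GPATCH1-dTAG line, all 4 of its libraries were at 1663 to 1694 CPM, just above the DHX35-dTAG libraries. Zfp42 (REX1; chr8:43295063-43306980, minus strand, 4 introns), a zinc finger gene used as a reporter of the naive state, was at 413 and 447 CPM in DHX35-dTAG cells in DMSO and at 435 and 459 in dTAG-13. Its GPATCH1-dTAG levels were 429 and 436 CPM in DMSO and 426 and 439.7 in dTAG-13, so the groups of this gene overlapped. Prdm14 (chr1:13113457-13127163, minus strand, 7 introns) was at 33.5 and 37.3 CPM in DHX35-dTAG cells in DMSO and at 37.7 and 33.3 in dTAG-13. In GPATCH1-dTAG cells Prdm14 was at 31.9 and 28.6 CPM in DMSO and at 29.8 and 29.3 in dTAG-13, below every DHX35-dTAG library. These genes are annotated in GENCODE M21 on GRCm38, the build of the authors' alignment.

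**Figure D2:**
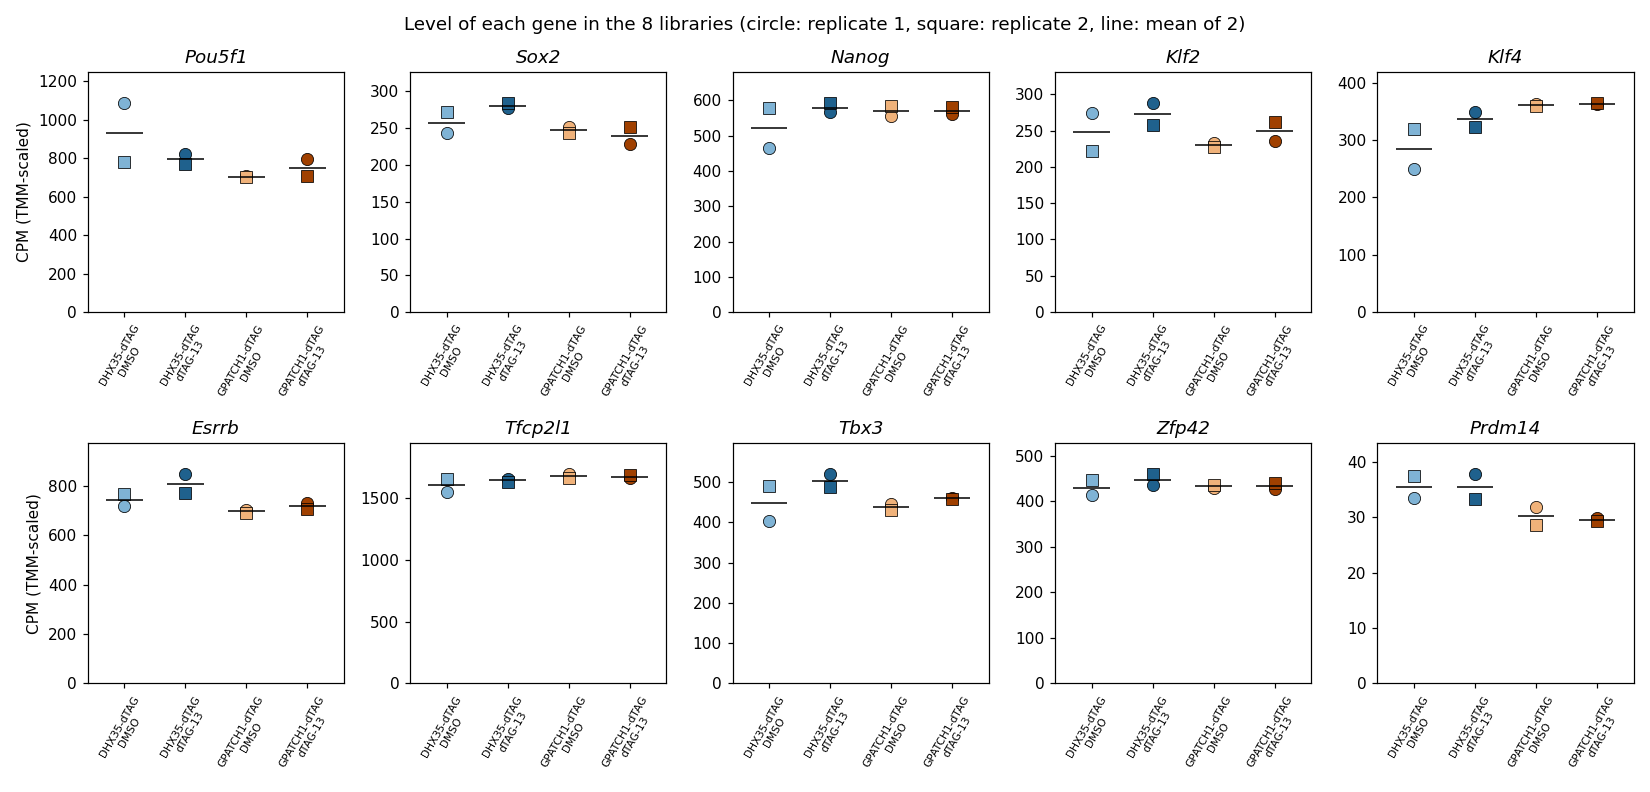
Level (CPM, TMM-scaled, axis from 0) of each of the 10 genes in the 4 groups, with a circle for replicate 1, a square for replicate 2 and a line at the mean of the 2 libraries. The circle for the DHX35-dTAG line under DMSO lies apart for Pou5f1 (1087 CPM), Nanog (467), Klf4 (249) and Tbx3 (403), and the GPATCH1-dTAG points lie above the DHX35-dTAG points for Klf4 and below them for Prdm14.

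After DHX35 depletion, none of the 10 genes passed the test. The test was the quasi-likelihood test of edgeR, with p-values adjusted over all genes by the Benjamini-Hochberg method, and a call means an adjusted p under 0.05. Over all genes tested 0% were called in this comparison, 5.39% had an unadjusted p under 0.05, and no member did. DESeq2, run as an alternative, also called no member. On the log2 scale Klf4 differed by 0.24 (SE 0.11, 95% interval -0.02 to 0.50, adjusted p = 0.715, edgeR) and Pou5f1 by -0.23 (SE 0.14, interval -0.55 to 0.09, adjusted p = 0.715). The other 8 members lay between 0.00 and 0.17, with Tbx3 at 0.17, Nanog at 0.15, Klf2 at 0.14, Sox2 and Esrrb at 0.12, Zfp42 at 0.06 and Tfcp2l1 at 0.04. The intervals of all 10 genes ran from -0.55 to 0.50, so the data do not show that their levels were equal. The median of the members was 0.12, with 9 above 0 and 1 below, against -0.0077 over all genes tested, but under scaling by library totals alone 1 was above 0 and 9 below. In this line the dTAG-13 libraries had more of their counts on the 2 genes with the highest counts. The part of that share in the change of sign was not tested. Scaling by library totals moved the median of all genes to -0.25, and relative to it the members' median was 0.13. The interval of Pou5f1 then lay off 0 (-0.85 to -0.07), as did those of Pou5f1 (-0.41 to -0.03) and Klf4 (0.04 to 0.45) with no expression filter, and neither gene was called in these fits. The dTAG-13 libraries were both above the DMSO libraries for 3 members (Sox2, Klf4 and Esrrb), beside 14.6% of all genes in that direction.

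These differences moved with replicate 1 of the DMSO libraries. Without it, the median of the members was 0.0334, 8 were above 0 and 2 below, and again none was called. Pou5f1 then stood at 0.03 instead of -0.23, Nanog at 0.0074 instead of 0.15, Tbx3 at 0.04 instead of 0.17 and Klf4 at 0.07 instead of 0.24. Klf2 moved the other way, to 0.30 (interval 0.12 to 0.47, adjusted p = 0.826, edgeR). With that library kept and DMSO replicate 2 left out, 5 of 10 members were called, beside 4949 of 17175 genes tested. They were Klf4 at 0.44, Tbx3 at 0.33, Nanog at 0.32, Sox2 at 0.21 and Pou5f1 at -0.44. Each of these fits leaves 1 DMSO library in the line, which is assumed to vary as the other groups do. The part of that library in the result was not tested beyond leaving it out.

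**Figure D3:**
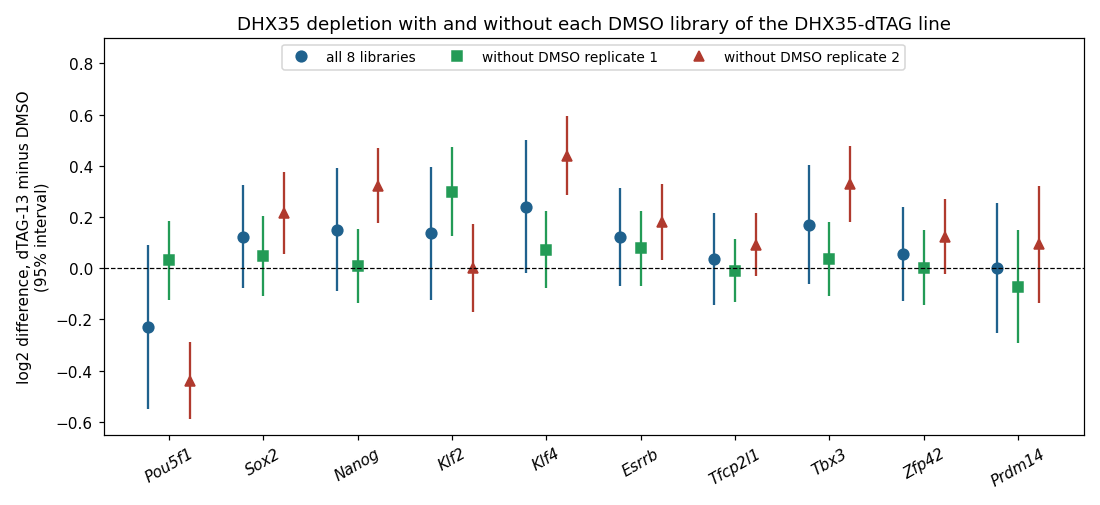
Log2 difference of each gene after DHX35 depletion (dTAG-13 minus DMSO) with its 95% interval, in the fit of all 8 libraries (circles), without DMSO replicate 1 (squares) and without DMSO replicate 2 (triangles). Pou5f1 moves from -0.44 without replicate 2 to 0.03 without replicate 1, and Klf4 from 0.44 to 0.07.

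After GPATCH1 depletion, none of the 10 genes passed the test, 0% of all genes were called, and no member had an unadjusted p under 0.05, against 2.97% of all genes. DESeq2 called no member. The spread is shared with the DHX35-dTAG libraries: without DHX35-dTAG DMSO replicate 1 there were 51 of 17037 genes called and 1432 with an unadjusted p under 0.05, and in a fit of only the 4 GPATCH1-dTAG libraries 127 and 1779 of 15815. No member was called in either fit (lowest adjusted p 0.689 and 0.443, edgeR). In the fit of only the 4 GPATCH1-dTAG libraries, the interval of Klf2 just lay off 0 (0.11, interval 1e-04 to 0.2185). With all 8 libraries, the log2 differences ran from -0.04 for Sox2 to 0.11 for Klf2, with Pou5f1 at 0.09 (SE 0.14, interval -0.23 to 0.42), Tbx3 at 0.07, Esrrb at 0.05 and Prdm14 at -0.04. Zfp42, Nanog, Klf4 and Tfcp2l1 differed by less than 0.01 in size. The median was 0.0057, with 7 above 0 and 3 below, against 0.0029 over all genes tested. Under library totals alone all 10 were above 0 and the median of all genes was 0.17, with the members' median 0.0053 above it. Over all 10 genes the intervals covered folds from 0.817 to 1.33. The dTAG-13 libraries lay above both DMSO libraries for 4 members (Pou5f1, Klf2, Esrrb and Tbx3), beside 21.5% of all genes in that direction. After TMM scaling, replicates of this line were close to each other. Before it, the 2 DMSO libraries differed in composition, with 4.23% and 20.9% of counts on the 2 genes with the highest counts. The median absolute difference between replicates over the members was 0.03 log2 units in DMSO and 0.05 in dTAG-13, against 0.10 and 0.12 over all genes tested. In DHX35-dTAG cells the corresponding values were 0.22 and 0.09 for the members and 0.29 and 0.15 for all genes.

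**Figure D4:**
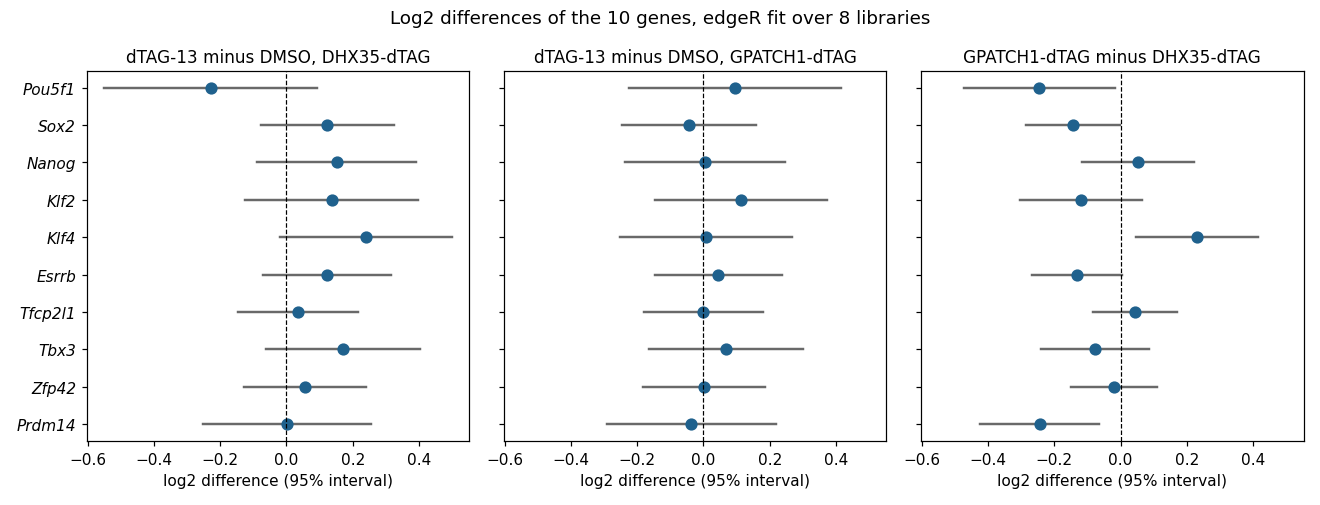
Log2 differences of the 10 genes with 95% intervals from the edgeR fit of 8 libraries, for dTAG-13 minus DMSO in each line and for GPATCH1-dTAG minus DHX35-dTAG over both treatments. After DHX35 depletion values run from -0.23 to 0.24, after GPATCH1 depletion from -0.04 to 0.11, and between the lines from -0.24 to 0.23, with the intervals of Klf4, Pou5f1 and Prdm14 and, narrowly, that of Sox2 off 0.

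The dTAG-13 effect common to both lines and the difference between the responses rest on the same libraries as the 2 depletions. Across both lines no member was called (0% of all genes) or had an unadjusted p under 0.05 (3.37% of all genes had), the median was 0.06 against -0.006 over all genes, and the largest value was 0.13 for Klf2 (SE 0.08, interval -0.06 to 0.31). Without DHX35-dTAG DMSO replicate 1, the median was 0.0232 and Klf2 stood at 0.21 (interval 0.09 to 0.32, adjusted p = 0.368, edgeR), the only member whose interval lay off 0. Without replicate 2 instead, 4 members were called, beside 2796 of 17175 genes, namely Klf4 at 0.22, Tbx3 at 0.20, Nanog at 0.16 and Pou5f1 at -0.17. No member had its 4 dTAG-13 libraries apart from its 4 DMSO libraries, beside 2.25% of all genes. The difference between the responses, GPATCH1 depletion minus DHX35 depletion, was called for no member (0% of all genes), and no member had an unadjusted p under 0.05 (3.91% of all genes had). Its largest values were 0.32 for Pou5f1 (SE 0.20, interval -0.13 to 0.78, adjusted p = 0.862, edgeR) and -0.23 for Klf4 (SE 0.16, interval -0.60 to 0.13). The interval of Pou5f1 lay off 0 with no expression filter (0.06 to 0.59) and with library totals alone (0.17 to 1.27), without a call. Without DHX35-dTAG DMSO replicate 1, the differences of all members lay between -0.18 and 0.06, and with that library kept and replicate 2 left out 4 members were called, beside 3592 of 17175 genes.

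Between the lines, some intervals lay off 0. In DMSO, the log2 difference of GPATCH1-dTAG minus DHX35-dTAG cells was -0.41 for Pou5f1 (SE 0.14, interval -0.73 to -0.09, adjusted p = 0.347, edgeR) and 0.35 for Klf4 (SE 0.11, interval 0.09 to 0.61, adjusted p = 0.346). Neither was a call, and 0.0916% of all genes were. Under library totals alone 9 of 10 members were below 0, against 6 under TMM, and the median of all genes was -0.19. These 2 were the only members with an unadjusted p under 0.05, a share of the 10 genes to be read against 12.9% of all genes. Both DMSO libraries of one line lay apart from those of the other for 5 members, with Klf4 and Tfcp2l1 higher in GPATCH1-dTAG cells (21.8% of all genes) and Pou5f1, Esrrb and Prdm14 lower (21.3%). Without the library that stands apart, Pou5f1 differed by -0.15 and Klf4 by 0.18. Prdm14 then had the largest difference of the members, -0.30 (interval -0.52 to -0.08, adjusted p = 0.309, edgeR), Tbx3 was at -0.16 (interval -0.31 to -0.02), and no member was called, beside 121 of 17037 genes. Without replicate 2 instead, 4 members were called, beside 5887 of 17175 genes, namely Pou5f1 at -0.62, Klf4 at 0.55, Nanog at 0.30 and Klf2 at -0.24.

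Over both treatments, with 4 libraries against 4, no member passed the test, and Prdm14 and Klf4 had the lowest adjusted p. Prdm14 had a difference of -0.24 (SE 0.08, interval -0.42 to -0.06, adjusted p = 0.226, edgeR), with no overlap between the 4 libraries of each line. Klf4 had one of 0.23 (SE 0.08, interval 0.05 to 0.41, adjusted p = 0.254), also with no overlap. Pou5f1, whose difference was marginally the largest in size, was at -0.24 (SE 0.10, adjusted p = 0.302) and Sox2 at -0.14 (SE 0.06, adjusted p = 0.330), and in both the libraries of the lines overlapped. Of all genes, 0.666% were called and 15.1% had an unadjusted p under 0.05, which 4 of the 10 members had. Libraries of the lines did not overlap for 3 members (Klf4 and Tfcp2l1 higher, Prdm14 lower), beside 11.6% of all genes. Esrrb (-0.13), Klf2 (-0.12) and Tbx3 (-0.08) were lower and Nanog (0.05), Tfcp2l1 (0.04) and Zfp42 (-0.02) near 0, and none of these passed.

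Leaving out the library that stands apart brought 2 members past the threshold. Prdm14 then differed between the lines by -0.28 (interval -0.42 to -0.13, adjusted p = 0.0215, edgeR) and Sox2 by -0.18 (interval -0.28 to -0.08, adjusted p = 0.0336), when 902 of 17037 genes were called. Esrrb, at -0.15, and Klf4, at 0.15, had adjusted p of 0.0555 and 0.0749. Pou5f1 stood at -0.11 (adjusted p = 0.180). Without the DHX35-dTAG DMSO replicate 2, 5 members were called, beside 5149 of 17175 genes. With no expression filter, Pou5f1 at -0.23 (adjusted p = 0.0402) and Klf4 at 0.25 (adjusted p = 0.0336) were called and Prdm14 was not, beside 890 of 32642 genes. In DMSO alone that setting also called Pou5f1 (-0.39, adjusted p = 0.00472) and Klf4 (0.36, adjusted p = 0.0238), beside 986 of 32642 genes.

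Other genes of the network were likewise not called after either depletion in the fit of all 8 libraries, and a few were called between the lines. Their differences after depletion are not given for the fit without DHX35-dTAG DMSO replicate 2. Of 25 other pluripotency genes, all were tested and none was called by edgeR after DHX35 depletion (median 0.12, 2 with an unadjusted p under 0.05 beside 5.39% of all genes) or GPATCH1 depletion (median 0.0071, 0 with one beside 2.97%). Without the library that stands apart the first median was 0.03, and none was called after either depletion (2 of 25 had an unadjusted p under 0.05 in each, beside 783 and 1432 of 17037 genes). DESeq2 called 1 of all 16371 genes after DHX35 depletion and 0 after GPATCH1 depletion. Between the lines over both treatments, 3 of 25 were called lower in GPATCH1-dTAG cells and 0 higher (0.391% and 0.275% of all genes). Nr0b1, which encodes the nuclear receptor DAX1, lay at 145 to 191 CPM in the 4 DHX35-dTAG libraries and at 94.5 to 105 in the GPATCH1-dTAG libraries, a difference of -0.68 (SE 0.09, adjusted p = 0.0130, edgeR). Tcl1, which encodes a coactivator of the kinase AKT, lay at 55.0 to 63.8 and 37.1 to 40.8 CPM (-0.58, SE 0.07, adjusted p = 0.0119). Utf1, which encodes a chromatin protein of pluripotent cells, lay at 218 to 289 and 179 to 185 CPM (-0.49, SE 0.09, adjusted p = 0.0493). The 3 genes were also called without the library that stands apart, when 6 of the list were called lower and 1 higher, beside 902 of 17037 genes. Over the 14 alternative settings Nr0b1 and Tcl1 were called in 8 and Utf1 in 6.

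With all 8 libraries, no gene of later states was called between the treatments. The fit without DHX35-dTAG DMSO replicate 2 is not given for the treatment comparisons of these genes. Of 12 genes of formative and primed pluripotency, 11 were tested (Fgf5 had too few counts) and none was called by edgeR after either depletion (2 of 11 had an unadjusted p under 0.05 after DHX35 depletion, beside 5.39% of all genes, and 0 after GPATCH1 depletion, beside 2.97%). Between the lines, Zic2, which encodes a zinc finger factor active as cells leave the naive state, was called lower in GPATCH1-dTAG cells, at 73.7 to 77.1 CPM against 90.6 to 103 (-0.33, SE 0.06, adjusted p = 0.0478, edgeR), beside 0.391% of all genes in that direction. Zic2 was called in 7 of 14 alternative settings, with adjusted p up to 0.352. Between the lines 6 of the 11 formative and primed genes had an unadjusted p under 0.05, against 15.1% of all genes. Without the library that stands apart, 4 of the 11 were called between the lines, beside 902 of 17037 genes, with Zic2 (-0.34), Tcf15 and Foxd3 lower and Lef1 higher, and none after either depletion. Of 12 early lineage genes, 9 were tested (not Sox17, Foxa2 and Mesp1) and none was called in any comparison with or without that library. The most with an unadjusted p under 0.05 were 3 of 9 between the lines over both treatments, against 15.1% of all genes, and 4 of 9 without that library, against 3312 of 17037 genes. In bulk RNA, fewer cells of a state and less RNA per cell cannot be told apart.

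The members did not share a single profile over the 8 libraries. With each gene's log2 CPM scaled to mean 0 and SD 1, Tbx3 was nearest to the members' mean profile (root mean square distance 0.232), followed by Esrrb (0.529) and Sox2 (0.536), and Pou5f1 was farthest (1.51), past the median of all genes tested (1.31). Outside it, the genes nearest to the mean profile were Tubb2b (0.148), which ran from 252 CPM in the library that stands apart to 302, then Trp53i11 (0.182), Maml1 (0.196), Emc3 (0.203) and Lipc (0.213). The mean profile had its lowest point in DHX35-dTAG DMSO replicate 1 (-1.48) and its highest in DHX35-dTAG dTAG-13 replicate 1 (1.61), both in the DHX35-dTAG line. Over the 7 libraries without the former, Tbx3 was again the nearest member (0.305) and Tubb2b the nearest other gene (0.161). Trp53i11 (0.197) also stayed among the nearest 5, Fblim1, Rangrf and Pknox1 took the places of Maml1, Emc3 and Lipc, and Klf4 became the farthest member (1.64). Pou5f1 stood at 0.750, under the median of all genes (1.30), while Klf4 and Tfcp2l1 (1.56) lay past that median.

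Exons of 3 members overlap those of other genes, and the strand setting of the counting, which bears on the antisense ones, is not given in the sources used here. Pou5f1 shares 317 exon bases with the antisense gene Gm19553, which had 54.3 CPM in the library that stands apart and 12.4 to 17.0 in the other 7. The same library was the highest for Pou5f1, and whether reads were shared was not tested. Tbx3 shares 115 exon bases with the antisense gene Tbx3os1, at 1.77 to 2.81 CPM. Tfcp2l1 shares 130 exon bases with the snRNA gene Gm23497 on the same strand, which had no count. Sox2 lies within Sox2ot, with which it shares no exon base and which stood at 3.89 to 6.36 CPM. Splicing of the 9 members with introns was not analysed here, because gene-level counts do not separate spliced from unspliced reads.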

How the data were processed

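RNA was sequenced by the authors after TRIzol extraction, addition of human DLD-1 RNA, removal of ribosomal RNA and stranded library preparation, and the reads were trimmed and aligned with STAR 2.7.5c to mm10 and hg19. What the authors deposited for each library is a table of unnormalized read counts by gene symbol. The counting program, annotation and strand setting are not given in the sources used here, and human reads were not used here. Groups came from the labels. Nothing in the labels says that the 2 libraries of a group came from separate cultures, so p-values measure the spread between these libraries, which may be technical.

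The tests used R 4.3.3 and edgeR 4.0.16 (functions glmQLFit, glmQLFTest, TMM, filterByExpr, 1 term per group over 8 libraries, Benjamini-Hochberg threshold 0.05). Standard errors are the log2 difference divided by the square root of F. Replicates varied by 11.2% (coefficient of variation at the common dispersion). Tested on simulated data for GPATCH1 depletion (16371 genes), 151 of 200 genes changed 2-fold were recovered and 25 of 200 changed by 0.5 on the log2 scale. Alternatives were DESeq2 1.42.0, its size factors, library totals alone, 2 other filters, leaving out each library, fitting only the libraries compared, and a replicate block. Named were all members and, of each other list, up to 3 called genes in each direction, plus the 5 genes of nearest profile. Dppa5a, Tcf15, Foxd3, Lef1, Fblim1, Rangrf, Pknox1 and the overlapping genes were picked with their values in view. The members and lists were chosen with earlier results of these data known. Exon lengths and positions came from GENCODE M21 and promoter windows from RefSeq.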

Additional observations from a re-analysis of the deposited data

How the results depend on the processing

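No member changed sides of the threshold after GPATCH1 depletion under any of the 15 alternatives. In simulated GPATCH1 depletion, over genes of all levels, a log2 change of 0.5 was recovered in 25 of 200 genes. Over the fits that leave out 1 library, the number of members called ranged from 0 to 5 for DHX35 depletion, 0 to 4 across both lines, 0 to 4 for the difference between the responses, 0 to 4 for the lines in DMSO and 0 to 5 for the lines over both treatments. The medians of the members ranged from 0.0334 to 0.1517, from -0.0045 to 0.0301 (GPATCH1 depletion), from 0.0233 to 0.0749, from -0.1344 to -0.001, from -0.0906 to 0.0545 and from -0.1161 to -0.0471. In the same fits the number of all genes called ranged from 0 to 4949 for DHX35 depletion, 0 to 51 for GPATCH1 depletion, 0 to 2796 across both lines, 0 to 3592 for the difference, 4 to 5887 for the lines in DMSO and 16 to 5149 over both treatments. The highest counts all came from leaving out DHX35-dTAG DMSO replicate 2, except that for GPATCH1 depletion both DMSO libraries of that line gave 51. For the lines in DMSO the median turned from -0.0426 to 0.0545 in that fit.

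Library totals alone gave members' medians of -0.1145 (DHX35 depletion), 0.173 (GPATCH1 depletion), 0.021 (across both lines), 0.3375 (difference) and -0.2254 (lines in DMSO), beside medians over all genes of -0.2473, 0.1677, -0.0433, 0.4037 and -0.1905. It gave 319, 10, 23, 179 and 703 genes called, with 254 for the lines over both treatments. With no expression filter the counts of all genes were 345, 21, 85, 140, 986 and 890 in the same order, and 2 members (Pou5f1 and Klf4) were called in each comparison of the lines. DESeq2 called 1 gene after DHX35 depletion, 3 across both lines, 9 for the difference and 47 for the lines in DMSO. Fits of only the 4 libraries compared called 1, 127 and 2 genes for DHX35 depletion, GPATCH1 depletion and the lines in DMSO, and at least 10 counts in every library gave 4 for the lines in DMSO. The cause of these shifts was not tested. The replicate block called 2 genes for the difference between the responses against 0, and changed no call of a member. Same-numbered libraries correlated at 0.04 to 0.23 in their deviations from the group means, not over 0.1 in every pair, so the numbers were not taken to pair the samples.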

Other observations

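Zfp42-ps1, annotated as a pseudogene of Zfp42, had 7.09 CPM in DHX35-dTAG DMSO replicate 1 and 21.4 to 29.8 CPM in the other 7 libraries. Zfp42 itself was also lowest in that library, at 413 CPM against 426 to 459. The sequences of the gene and the pseudogene were not compared here, nor is the treatment of reads that match more than 1 gene given in the sources used here. Over the 10 members, that library was the lowest of the 8 for 5 genes and the highest for 1, while DHX35-dTAG dTAG-13 replicate 1 was the highest for 4. The members together took 0.455% to 0.612% of the counts of a library, and 0.575% to 0.642% when the 2 genes with the highest counts were left out.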
